A study of Rattus norvegicus with 4 samples.

Results

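The proteasome subunits examined here are the genes whose symbol is Psma, Psmb, Psmc or Psmd followed by a number. They numbered 39 of the 31038 genes listed in each library, namely 19 of the 20S core (Psma and Psmb), 6 ATPases of the 19S base (Psmc) and 14 genes of the 19S lid or other 19S functions (Psmd). A single further name, in which more letters follow the number, was left out by this rule. The members were taken by symbol and not by any measured value, but earlier results of these data were known when they were chosen.

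The 26S proteasome degrades proteins tagged with ubiquitin. Its 20S core is a barrel in which alpha subunits form the outer rings and gate the entrance, while beta subunits form the inner rings and cut the substrate. The 19S particle caps the barrel: a ring of ATPases unfolds and threads the substrate, non-ATPase subunits of the base bind ubiquitin, and the lid removes the ubiquitin chain. In heart muscle cells, which live long and turn over their contractile proteins steadily, this system removes damaged and misfolded proteins.

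Ribosome footprints, the stretches of messenger RNA that a translating ribosome protects, were counted per gene in cultured rat myocardial cells. The si3m group (2 libraries) received an siRNA against eIF3m, a subunit of the translation initiation complex eIF3, and the siNT group (2 libraries) received a control siRNA. The rat strain, the siRNA sequences, the dose and the time after transfection are not given in the labels, and it is not stated that the libraries of a group stem from separate cultures. P-values then cover only the spread seen among these libraries, which may be technical. The cells are labelled NRVM, usually neonatal rat ventricular myocytes, although the growth protocol names embryonic rat heart. RNA-seq of the same cells was not analysed here, so each value is a footprint abundance and not a translational efficiency.

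Total counts were 8687598 and 6726969 in the si3m libraries and 3924434 and 3835750 in the siNT libraries. Levels are given as CPM, counts of a gene relative to its library total, with totals adjusted by TMM so that the libraries are comparable. Fold changes are si3m over siNT with their standard error (SE), and a gene was called when its edgeR quasi-likelihood p, adjusted by Benjamini-Hochberg over all 12672 tested genes, was under 0.05. Eif3m, the siRNA's target, had 138 and 191 CPM in si3m, against 532 and 451 CPM in siNT (3.01-fold lower, log2 -1.59, SE 0.11, adjusted p = 3.41e-08 in edgeR). With robust quasi-likelihood its adjusted p was 0.0522. Of 18 cardiomyocyte marker genes, 11 and 8 had at most 6 counts in the si3m libraries, against 13 and 12 in the siNT libraries. The si3m libraries were deeper, so 6 counts equal 0.691 and 0.892 CPM of the total there and 1.53 and 1.56 in siNT. These numbers of genes therefore do not compare the groups at equal depth. Tnni3, Myl7 and Nppa were at 0 in all 4 libraries. The 18 genes summed to 591 and 596 CPM of the library total in si3m, against 993 and 956 in siNT. Most of that sum came from Atp2a2, which fell (log2 -0.77), whereas Tnnt2 rose (log2 1.25). Of the 6 that could be tested, 1 rose and 3 fell. The 12 fibroblast markers summed to 16635 and 16361 CPM of the total in si3m, against 12570 and 12531 in siNT, although Tcf21 was at 0 throughout. Of the 9 of them that could be tested, 8 rose and 1, Fn1, fell. Smooth muscle markers (4 genes) summed to 3534 and 3540 in si3m, against 3215 and 3188 in siNT. Of these 4, Acta2 rose (log2 0.35), Tagln fell (log2 -0.23) and 2 did not pass. Endothelial markers (5 genes, Cdh5 at 0 in all 4 libraries) summed to 3.45 and 3.87 in si3m, against 3.06 and 5.74 in siNT. Macrophage markers (5 genes) summed to 1.38 and 1.49 in si3m, against 9.68 and 12.0 in siNT. Most of the siNT sum came from Adgre1, with 4 and 0 counts in si3m and 24 and 34 in siNT. It was the only 1 of the 5 that could be tested, and the rest stood on few counts in every library. With many cardiomyocyte markers at or near 0 counts, the values below are not shown to be those of heart muscle cells, despite the label NRVM. In bulk libraries fewer cells of a type and less RNA per cell cannot be told apart, and the part of these marker shifts in the proteasome values was not tested.

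The 3 parts of the proteasome gave different counts of calls between si3m and siNT. In the 20S core 5 subunits rose and none fell, and in the 19S base, here only the 6 Psmc ATPases, 2 rose and 2 fell. Among the lid and other 19S genes 1 rose and 3 fell. That class includes the base subunits that are not ATPases (Psmd1, Psmd2 and Psmd4), of which 1 fell. Over all 37 tested members 8 rose and 5 fell in si3m, with log2 fold changes of 0.33 to 0.92 for those that rose and -0.68 to -0.30 for those that fell. These 13 calls are 35.1% of the tested members, beside 27.8% of all tested genes. The members that rose are 21.6% of those tested and the members that fell 13.5%, beside 14.0% and 13.9% of all tested genes. The median log2 fold change was 0.38 in the 20S core, -0.26 in the 19S base and -0.08 in the lid or other class, against 0.02 over all tested genes. The median of the lid or other class turned to 0.012 without siNT replicate 1 and 0.013 without si3m replicate 2, and was -0.17 without siNT replicate 2. Lower calls in the base numbered 0 without si3m replicate 1 and 1 without siNT replicate 2, and those in the lid or other class 5 without siNT replicate 2. The differences between the classes were not tested. With total count scaling, which moved the median of all tested genes to -0.06, the members split into 8 higher and 9 lower.

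**Figure D1:**
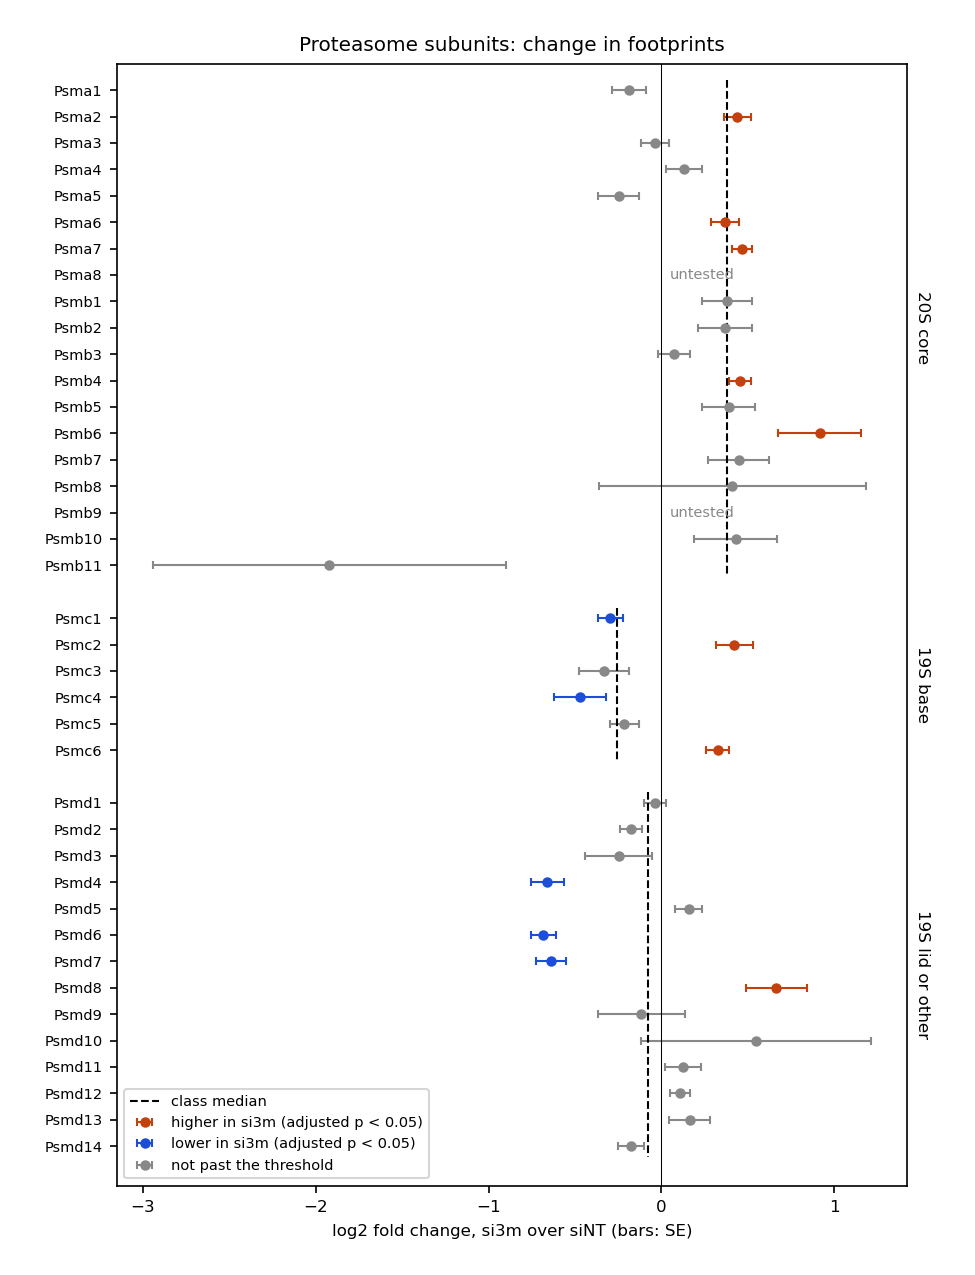
Log2 fold change (si3m over siNT) of each proteasome subunit, with bars for its SE; red and blue mark subunits past the edgeR threshold, and dashed lines mark class medians. The 20S core holds 5 red and no blue points, while Psmd4, Psmd6 and Psmd7 lie lowest among the called subunits.

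Both si3m libraries lay on the same side of both siNT libraries for 31 of the 37 tested members (83.8%), 18 of them higher and 13 lower. Such separation was common in these libraries, since it held for 63.9% of all tested genes, 32.6% higher and 31.3% lower. The median mean level was 105 CPM over tested members and 22.2 CPM over all tested genes, so the members stood on more counts than most genes did. Together the 39 members took 0.417% and 0.414% of all counts in the si3m libraries, against 0.435% and 0.422% in the siNT libraries. Both si3m shares lay below both siNT shares, but the nearest libraries of the 2 groups lay closer together than the siNT libraries did. These shares leave out the lid subunit Sem1, which the symbol rule did not take and which rose (log2 1.79). The order of the shares holds only for the members taken by symbol.

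**Figure D2:**
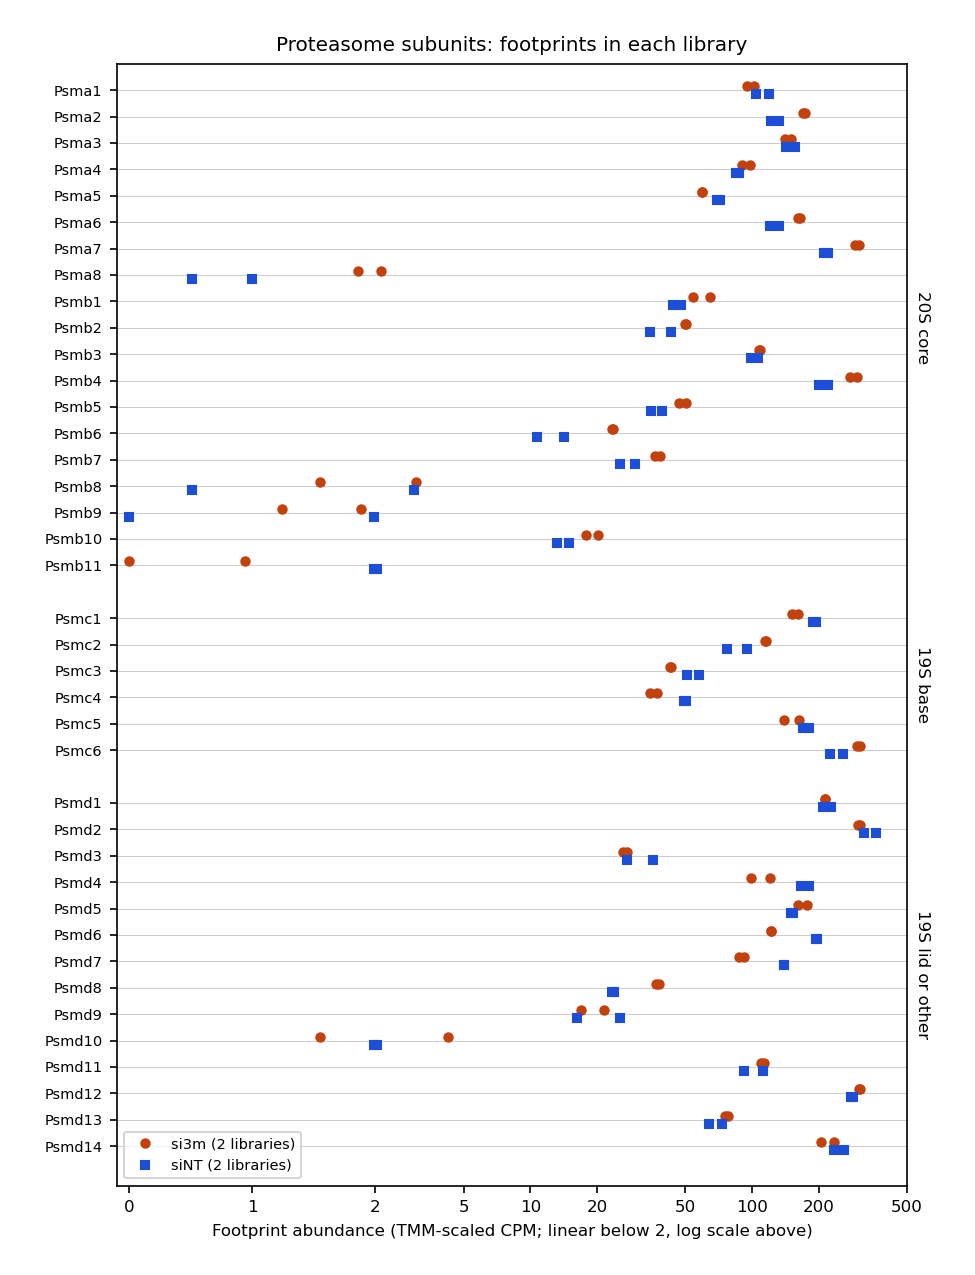
TMM-scaled CPM of each proteasome subunit in each library, with a scale that is linear below 2 and logarithmic above; red circles are the si3m libraries and blue squares the siNT libraries. Psma2, Psma6, Psma7, Psmb4 and Psmb6 show si3m to the right of siNT, and Psmd4, Psmd6 and Psmd7 show it to the left.

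Within the proteasome, footprints were distributed differently between its parts in the 2 groups. The 20S core took 39.6% and 38.5% of the proteasome counts in the si3m libraries, against 33.1% and 33.0% in the siNT libraries. That is 39.1% ± 0.815 in si3m and 33.0% ± 0.0989 in siNT (SD, n = 2 each), and the groups did not overlap. The lid or other class took 42.1% and 42.3% in si3m, against 48.1% and 47.7% in siNT, again without overlap. That class leaves out Sem1, which had 645 and 636 CPM in si3m, against 172 and 199 CPM in siNT. This rise was larger than the fall in the summed CPM of the class, so the size of the drop in share depends on leaving Sem1 out. The 19S base, here only the Psmc ATPases, took 18.3% and 19.2% in si3m, against 18.8% and 19.3% in siNT, and these values overlapped. As shares of the whole library, the 20S core had 1654 and 1591 CPM of the total in si3m, against 1442 and 1393 in siNT. The lid or other class had 1758 and 1750 in si3m, against 2095 and 2015 in siNT. The base ATPases had 763 and 795 in si3m, against 818 and 817 in siNT. Within the lid or other class, the base subunits Psmd1, Psmd2 and Psmd4 had 619 and 595 in si3m, against 791 and 717 in siNT. The 8 lid subunits taken by symbol, without Sem1, had 955 and 966 in si3m, against 1121 and 1121 in siNT. The 3 assembly chaperones had 183 and 189 in si3m, against 182 and 177 in siNT. The class shares add up to the whole in each library, so a higher share of any class lowers the rest, and they are not separate results. With 2 libraries per group no test of these shares was made.

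**Figure D3:**
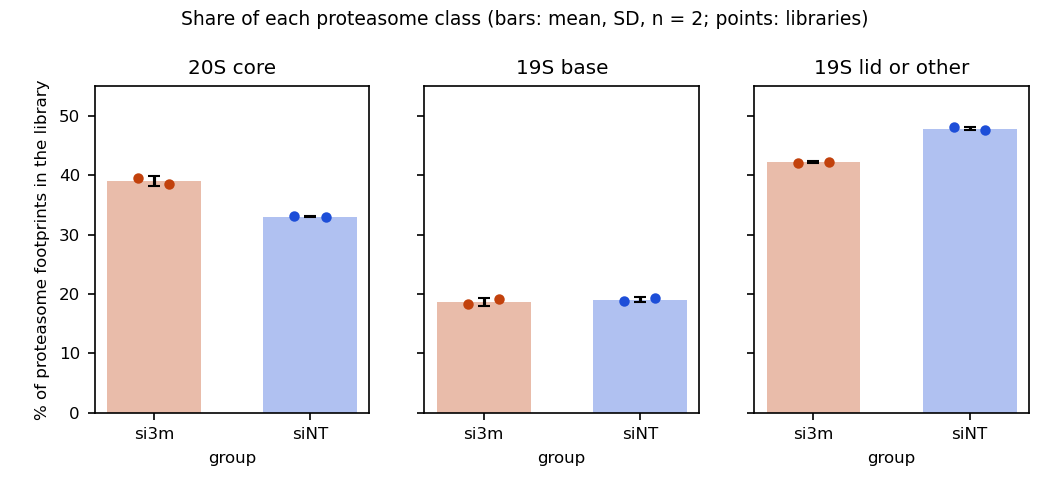
Share of all proteasome counts in a library that fell on the 20S core, the 19S base and the lid or other class, in percent; bars are means with SD over 2 libraries and points are libraries. The 20S share is 39.1% in si3m and 33.0% in siNT, and the lid or other share 42.2% in si3m and 47.9% in siNT. The shares of the base, here only its ATPases, overlap. The lid subunit Sem1, which the symbol rule did not take, is left out.

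Proteasome genes of mammals are known to share promoter elements, among them the antioxidant response element bound by NRF1 (Nfe2l1), the factor that raises proteasome genes when proteolysis is impaired. Windows of 300 bases around the start site, 250 before it and 50 after, were found for 34 of the 39 members in RefSeq sequence of the rat assembly GRCr8. Psma7, Psmb11, Psmd6, Psmd12 and Psmd14 had none. The core TGACNNNGC, searched on both strands, occurred in 7 of the 34 (20.6%), beside 14.3% of the 9795 windows of tested genes and 12.1% of all 33469 windows. It was in 4 of 17 windows of the 20S core, 0 of 6 of the base and 3 of 11 of the lid or other class. By call, it was in 1 of 7 members that rose, 0 of 4 that fell and 6 of 21 that did not pass. The short upstream pieces from the catalytic subunits Psmb6 and Psmb5, together with the beta ring subunit Psmb2, are printed to show the element in 3 of these 4 windows of the 20S core, all from beta subunits, on the gene's own strand with the match in capitals. The fourth window was that of the alpha subunit Psma3. The pieces lie at chr10:55737854-55737882 (plus strand), chr15:32047421-32047449 (minus strand) and chr5:144254980-144255008 (plus strand).
Psmb6: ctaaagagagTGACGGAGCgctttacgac
Psmb5: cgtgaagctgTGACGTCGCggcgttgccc
Psmb2: cccgcgccaaTGACCGGGCggtcgcatat

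A second element, the ETS core CGGAAG, which reads CTTCCG on the other strand, was in 18 of the 34 windows (52.9%), beside 31.2% of windows of tested genes and 16.6% of all windows. It was in 8 of 17 windows of the 20S core, 5 of 6 of the base and 5 of 11 of the lid or other class. By call, it was in 5 of 7 members that rose, 4 of 4 that fell and 8 of 21 (38.1%) that did not pass. The element was thus found in called members of both directions, and the split of few windows by call was not tested. The following upstream pieces show it in 3 subunits that rose (Psma6, Psmb4 and Psmd8) and in 2 that fell (Psmc1 and Psmd4). They lie at chr6:78514272-78514297 (plus strand), chr2:185134574-185134599 (minus strand), chr1:93608690-93608712 (minus strand), chr6:125122387-125122412 (plus strand) and chr2:185297333-185297358 (minus strand). The piece of Psmb4 holds a second match, left in lower case.
Psma6: cttaccagagCGGAAGcagctaggcc
Psmb4: caaacgacgaCTTCCGcttccggtga
Psmd8: agcaaaccgaCTTCCGttcacca
Psmc1: tcccgataggCTTCCGtagaatctct
Psmd4: ctagctgctcCGGAAGcaagcggctg
The CCAAT box, searched as CCAAT on both strands, was in 18 of the 34 windows (52.9%), beside 38.1% of windows of tested genes and 37.5% of all windows. By call, it was in 1 of 7 members that rose, 3 of 4 that fell and 13 of 21 that did not pass, a split of few windows that was not tested. The median GC content was 55.8% in members' windows, 60.7% in windows of tested genes and 51.7% in all windows. A match of letters is a description of the window and not a measured binding site.

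In the alpha ring, 3 of 7 tested subunits rose, none fell and the median log2 fold change was 0.13. Psma7 had 305 and 291 CPM in si3m, against 211 and 221 CPM in siNT (1.38-fold, log2 0.47, SE 0.059, edgeR adjusted p = 2.37e-05). Psma2 had 171 and 174 CPM in si3m, against 132 and 122 CPM in siNT (1.36-fold, log2 0.44, SE 0.077, adjusted p = 5.05e-04). Psma6, whose upstream piece with the ETS core is printed above, had 165 and 162 CPM in si3m, against 133 and 120 CPM in siNT (1.29-fold, log2 0.37, SE 0.080, adjusted p = 0.00259). In each of these 3 ring subunits the lower si3m library stood above the higher siNT library. The other 4 did not pass and did not share a sign. Psma1 had 102 and 94.7 CPM in si3m, against 120 and 104 CPM in siNT (log2 -0.19, SE 0.10, adjusted p = 0.187). Psma5 had 59.4 and 59.7 CPM in si3m, against 71.7 and 69.6 CPM in siNT (log2 -0.25, SE 0.12, adjusted p = 0.146). Psma4, at 90.7 and 98.4 CPM in si3m and 87.6 and 84.9 CPM in siNT, had a log2 value of 0.13 (SE 0.10). For Psma3, 141 and 151 CPM in si3m overlapped 142 and 157 CPM in siNT. Psma8, an alpha subunit of the testis proteasome, had deposited counts of 18 and 12 in si3m and 4 and 2 in siNT and was too low to be tested.

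All 7 constitutive beta subunits had both si3m libraries above both siNT libraries, although edgeR called only 2 of them. Of all tested genes, 32.6% were separated in this direction and 14.0% were called higher. Psmb6, which carries the caspase-like activity, had 23.3 and 23.7 CPM in si3m, against 14.2 and 10.7 CPM in siNT (1.89-fold, log2 0.92, SE 0.24, adjusted p = 0.00957). Psmb4, a structural subunit of the ring, had 298 and 278 CPM in si3m, against 221 and 200.2 CPM in siNT (1.37-fold, log2 0.46, SE 0.065, adjusted p = 7.32e-05). The gap between the groups was wider than the gap between replicates in both genes. The other catalytic subunits did not pass. Psmb5, with the chymotrypsin-like activity that proteasome inhibitors chiefly block, had 50.4 and 47.0 CPM in si3m, against 39.3 and 35.1 CPM in siNT (log2 0.39, SE 0.15, adjusted p = 0.0720). Psmb7, with the trypsin-like activity, had 36.5 and 38.7 CPM in si3m, against 25.4 and 29.7 CPM in siNT (log2 0.45, SE 0.18, adjusted p = 0.0730). For the non-catalytic Psmb1 the values were 64.9 and 54.4 CPM in si3m and 47.8 and 44.2 CPM in siNT (log2 0.38, SE 0.14, adjusted p = 0.0641). The values of Psmb2 were 50.6 and 50.1 CPM in si3m and 34.8 and 43.2 CPM in siNT (log2 0.37, SE 0.16, adjusted p = 0.0930). These 4 fold changes were as large as those of called alpha subunits, with larger errors on fewer counts. Psmb3 was nearly level, at 108 and 108 CPM in si3m and 106 and 99.1 CPM in siNT (log2 0.08, turning to -0.0043 with total count scaling). In the constitutive ring the median log2 fold change was 0.39.

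Over the alpha and constitutive beta rings together, without Psma8, 5 of 14 subunits rose and none fell. The count of 0 was the same with DESeq2 and at an unadjusted edgeR p under 0.05, where 9 of the 14 were higher. Of all 12672 tested genes, 2450 were higher and 2433 lower at that unadjusted p, and DESeq2 called 1212 higher and 1344 lower. These counts are also the background for the smaller lists below, in which few or no calls can arise from the size of the list. Leaving out each library in turn gave 5 to 7 higher calls and 0 lower calls in the 20S core, and its median stayed between 0.32 and 0.44. With total count scaling that median was 0.30 with 5 higher calls.

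The beta subunits that replace the constitutive ones in the immunoproteasome, and the thymus subunit Psmb11, gave no call among 3 tested. This was also so in DESeq2 and at an unadjusted edgeR p under 0.05. Psmb10, the immune counterpart of Psmb7, had 17.9 and 20.1 CPM in si3m, against 14.9 and 13.2 CPM in siNT (log2 0.43, SE 0.24, adjusted p = 0.206), and its groups did not overlap. The rest stood on few counts. Psmb8 had deposited counts of 26 and 10 in si3m and 12 and 2 in siNT, and the groups overlapped. Psmb9, untested, had counts of 16 and 8 in si3m and 8 and 0 in siNT. Psmb11 had counts of 8 and 0 in si3m and 8 and 8 in siNT (log2 -1.92, SE 1.02, adjusted p = 0.183). Since most counts in these libraries were even, a count of 0 allows up to 3 fragments, or 6 counts, equal to 0.691 and 0.892 CPM of the total in si3m and 1.53 and 1.56 in siNT, for counting error only. At such counts only large changes could have been called.

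The ring of 6 ATPases in the 19S base was split, although its members form one hexamer. Psmc6 had 297 and 306 CPM in si3m, against 258 and 224 CPM in siNT (1.25-fold, log2 0.33, SE 0.067, edgeR adjusted p = 0.00179). Psmc2 had 115 and 116 CPM in si3m, against 77.2 and 95.0 CPM in siNT (1.34-fold, log2 0.42, SE 0.11, adjusted p = 0.00791). These 2 ATPases rose, while 2 others fell. Psmc1, shown above with its ETS core, had 151 and 161 CPM in si3m, against 194 and 189 CPM in siNT (1.23-fold lower, log2 -0.30, SE 0.071, adjusted p = 0.00558). Psmc4 had 34.9 and 37.1 CPM in si3m, against 49.3 and 50.3 CPM in siNT (1.38-fold lower, log2 -0.47, SE 0.15, adjusted p = 0.0293). All 4 were separated between the groups, as were 63.9% of all tested genes, but 3 of the calls were lost when a library was left out. The call of Psmc1 was lost without si3m replicate 1 (log2 -0.24, adjusted p = 0.0737) and that of Psmc2 without siNT replicate 1 (log2 0.28, adjusted p = 0.0605). Psmc4 lost its call in DESeq2 (adjusted p = 0.0761), without siNT replicate 2 (0.0611), without si3m replicate 1 (0.205) and without si3m replicate 2 (0.0993), while its log2 value lay between -0.50 and -0.41 in these 4 alternatives. The remaining ATPases, Psmc3 and Psmc5, did not pass. Psmc3 had 42.6 and 43.3 CPM in si3m, against 50.8 and 57.4 CPM in siNT (log2 -0.33, SE 0.14, adjusted p = 0.101). Psmc5 had 139 and 163 CPM in si3m, against 170.2 and 180.4 CPM in siNT (log2 -0.22, SE 0.084, adjusted p = 0.0707). With total count scaling these 2 passed as well, so that 4 of the 6 ATPases were lower.

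Of the 3 base subunits that are not ATPases, 1 fell. Psmd4, a receptor that holds ubiquitin chains on the particle, had 121 and 99.3 CPM in si3m, against 182 and 167 CPM in siNT (1.58-fold lower, log2 -0.66, SE 0.095, edgeR adjusted p = 8.15e-05). Even the higher si3m library was well below the lower siNT library. Psmd2, a scaffold that docks ubiquitin-binding proteins, had 299.7 and 308 CPM in si3m, against 364 and 322 CPM in siNT (log2 -0.18, SE 0.064, adjusted p = 0.0509). This lay just outside the threshold, and Psmd2 passed under 9 of 15 alternative settings. Psmd1, the other large scaffold, was at 213 and 213 CPM in si3m and 227 and 209 CPM in siNT, which overlapped.

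In the lid, here without Sem1, 2 of 8 subunits fell and 1 rose. Psmd6, a lid subunit with a PCI domain, had 122 and 123 CPM in si3m, against 198 and 195 CPM in siNT (1.60-fold lower, log2 -0.68, SE 0.072, edgeR adjusted p = 3.63e-06). Psmd7, the MPN-domain partner of the deubiquitinase Psmd14, had 92.1 and 87.6 CPM in si3m, against 139.9 and 139.7 CPM in siNT (1.55-fold lower, log2 -0.64, SE 0.087, adjusted p = 5.25e-05). In both genes the replicates lay close together and the groups far apart. Psmd8, also a PCI subunit, went the other way, with 37.0 and 38.1 CPM in si3m, against 23.9 and 23.4 CPM in siNT (1.59-fold, log2 0.67, SE 0.18, adjusted p = 0.0108). Its replicates were just as close, yet the call was lost without si3m replicate 1 (adjusted p = 0.0528) and without si3m replicate 2 (adjusted p = 0.0730). Among the 6 PCI subunits 1 rose and 1 fell, with a median log2 fold change of 0.12. Psmd14, which cuts the ubiquitin chain off the substrate, had 205 and 235 CPM in si3m, against 261 and 235.3 CPM in siNT (log2 -0.18, SE 0.074, adjusted p = 0.0916). Psmd12 had 309 and 303 CPM in si3m, against 281 and 287 CPM in siNT (log2 0.11, SE 0.056, adjusted p = 0.170). Psmd3 (log2 -0.25), Psmd11 (log2 0.13) and Psmd13 (log2 0.16) did not pass either, with adjusted p between 0.334 and 0.395, and the values of Psmd11 overlapped between the groups.

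The 3 chaperones that help to assemble the base, which are not part of the finished particle, gave no call in edgeR, in DESeq2 or at an unadjusted edgeR p under 0.05. Psmd5 had 162 and 178 CPM in si3m, against 150.3 and 154 CPM in siNT (log2 0.16, SE 0.077, adjusted p = 0.143). Its groups did not overlap, whereas those of the other 2 did. Psmd9 had 21.4 and 16.9 CPM in si3m, against 25.4 and 16.3 CPM in siNT. Psmd10 stood on deposited counts of 36 and 10 in si3m and 8 and 8 in siNT.

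Several subunits have pseudogenes or near copies that could share reads with them, and how reads with several matches were counted is not given in the sources used here. In the GRCr8 annotation 15 of the 39 members had at least 1 named copy, 39 copies in all. No copy had an entry under its GRCr8 symbol, and entries under other names were not searched for. A copy was named for 7 of the 8 members that rose, 1 of the 5 that fell and 7 of the 24 that did not pass, and for all 5 called members of the 20S core. Values of those genes are uncertain to that extent. Among 20S members with no named copy, the median log2 fold change was 0.37 (8 members), and among those with a copy it was 0.44 (9 members). In the base the medians were -0.26 without a copy (4 members) and -0.07 with one (2 members), and in the lid or other class -0.15 (10 members) and 0.04 (4 members). Overlap with another gene that has its own entry was found for 5 members, Psma8 (Ss18), Psmb1 (Tbp), Psmc6 (Styx), Psmd1 (Htr2b) and Psmd8 (LOC103689966), and the strand setting of the counting is not given. Among the genes named below that are not members, Psme1, Psme2 and Psmg4 each have 3 named copies and Ubb has 4. Psme1 (Emc9), Uba6 (Stap1) and Mafk (LOC102546414) overlap a gene with its own entry. The part of copies and overlaps in the results was not tested.

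Genes that complete, assemble, activate and supply the proteasome were set beside the subunits. The small lid subunit Sem1, which the symbol rule did not take and which the files list as Shfm1, had 645 and 636 CPM in si3m, against 172 and 199 CPM in siNT (3.45-fold, log2 1.79, SE 0.066, edgeR adjusted p = 1.54e-11). Both si3m libraries stood far above both siNT libraries. This rise was larger than the fall in the summed CPM of the lid subunits taken by symbol, so that lower sum holds only without Sem1. Of 6 19S subunits and associated enzymes outside the symbol rule with an entry, Sem1 among them, 2 rose and 2 fell. Their median log2 fold change was 0.19. Usp14, a deubiquitinase bound to the base, rose (log2 0.36, SE 0.078, adjusted p = 0.00232). Ube3c, a ligase at the proteasome, fell (log2 -0.25, SE 0.071, adjusted p = 0.0138), but its call was lost without siNT replicate 2 and without si3m replicate 2 (highest adjusted p = 0.160). Txnl1, a thioredoxin-like protein of the 19S particle, chosen after its values were seen, fell by 0.23 on the log2 scale, and its call was lost under 4 of 15 alternatives, among them without siNT replicate 1 and without si3m replicate 2 (highest adjusted p = 0.477).

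Of the 5 activators and inhibitors that bind the ends of the barrel, 3 rose and 1 fell, with a median of 0.52. Psme4, the large single-chain activator PA200, had 379 and 363 CPM in si3m, against 586 and 599 CPM in siNT (1.60-fold lower, log2 -0.68, SE 0.053, edgeR adjusted p = 1.29e-07). Psmf1, a proteasome inhibitor, rose by 0.67 (SE 0.20, adjusted p = 0.0211), and Psme1, a subunit of the interferon-induced activator ring, rose by 0.52 (SE 0.16, adjusted p = 0.0246). Its partner Psme2, chosen after its values were seen, rose by 0.85 (SE 0.29, adjusted p = 0.0386). DESeq2 called none of these 3, and none of them passed without si3m replicate 1. Psme1 and Psme2 also lost the call without si3m replicate 2, Psme1 without siNT replicate 2 and Psme2 without siNT replicate 1. The highest adjusted p over the alternatives was 0.235 for Psmf1, 0.146 for Psme1 and 0.199 for Psme2, and Psme1 and Psme2 each have 3 named copies.

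Among 5 chaperones that assemble the 20S core, 2 rose and none fell, with a median of 0.61. Psmg4 had 17.2 and 18.3 CPM in si3m, against 5.97 and 9.65 CPM in siNT (2.27-fold, log2 1.18, SE 0.29, edgeR adjusted p = 0.00639). Psmg1 rose by 0.62 (SE 0.18, adjusted p = 0.0191), with the call lost in DESeq2 and without siNT replicate 1 or either si3m replicate (highest adjusted p = 0.139). Psmg3 had the same direction without passing (log2 0.61, SE 0.28, adjusted p = 0.122), but passed without siNT replicate 1 (log2 1.12, adjusted p = 0.00179), whereas Psmg2, the partner of Psmg1, had a log2 value of -0.61 and did not pass. The 0 lower calls were also 0 in DESeq2 and at an unadjusted p under 0.05.

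**Figure D4:**
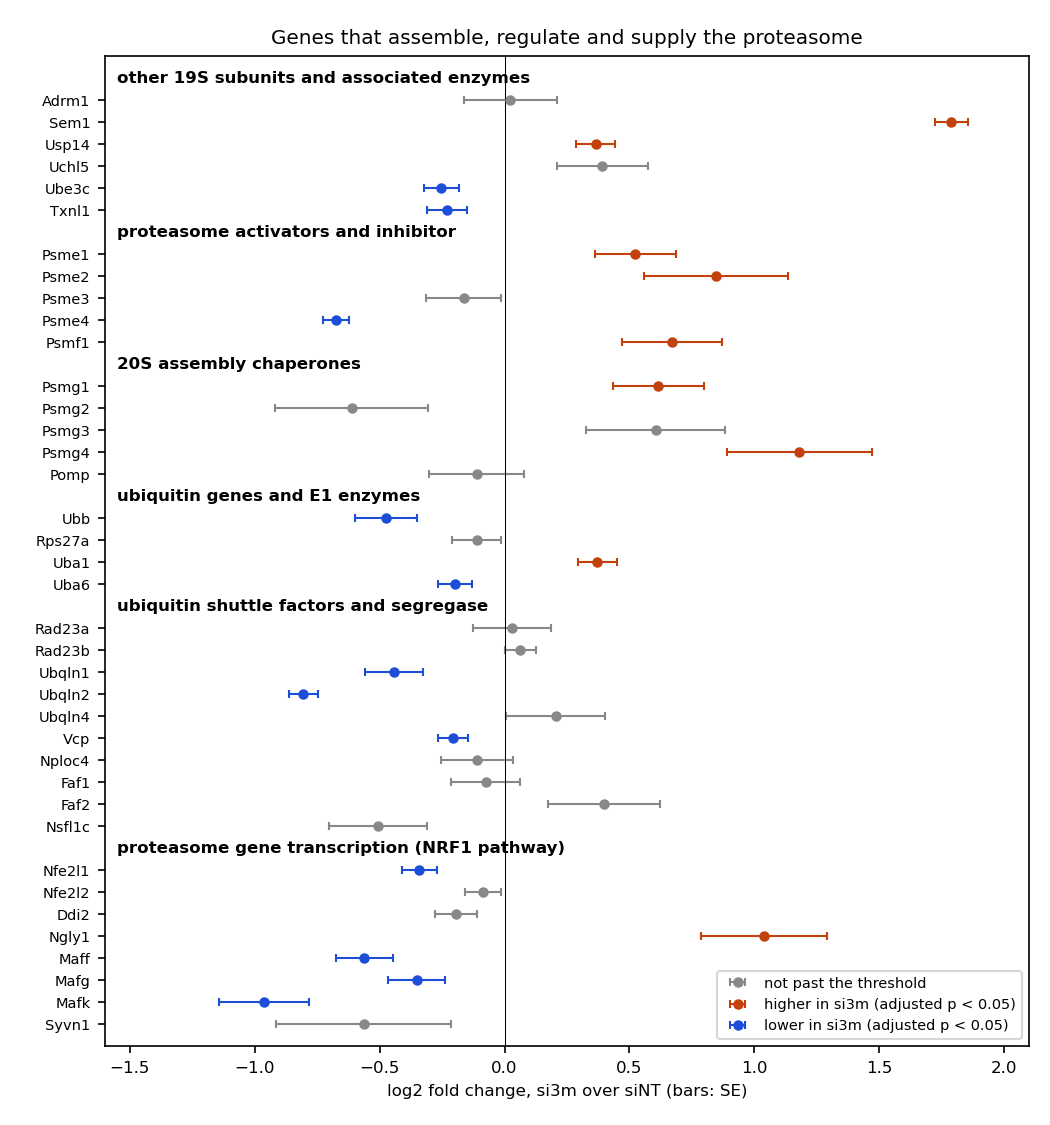
Log2 fold change (si3m over siNT, bars SE) of genes that complete, assemble, regulate or supply the proteasome, grouped by function; red and blue mark genes past the edgeR threshold. Sem1 lies farthest to the right at 1.79, and the small Maf gene Mafk farthest to the left at -0.96.

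The enzymes that activate ubiquitin for transfer moved in both directions. Uba1, the main ubiquitin-activating enzyme, had 196 and 224 CPM in si3m, against 155 and 169 CPM in siNT (1.29-fold, log2 0.37, SE 0.079, edgeR adjusted p = 0.00226). Both si3m libraries lay above both siNT libraries. The second activating enzyme, Uba6, fell (log2 -0.20, adjusted p = 0.0402), with the call lost under 7 alternatives, including without each of the 4 libraries (highest adjusted p = 0.184). Ubb, a ubiquitin gene, fell as well (log2 -0.47, adjusted p = 0.00978, but 0.0768 without si3m replicate 2). Ubb and Uba6 were chosen after their values were seen.

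Of 10 shuttle factors and segregase components with an entry, which bring ubiquitinated proteins to the 19S receptors, 3 fell and none rose. Ubqln2 had 197 and 190.0 CPM in si3m, against 347 and 330 CPM in siNT (1.75-fold lower, log2 -0.81, SE 0.059, edgeR adjusted p = 5.31e-08). Ubqln1, of the same family, fell by 0.44 (SE 0.12, adjusted p = 0.0101, but 0.0622 without si3m replicate 2). Vcp, the segregase ATPase that pulls proteins out of complexes and membranes, fell by 0.21 (SE 0.061, adjusted p = 0.0191) and lost the call in DESeq2 and without siNT replicate 1 or either si3m replicate (highest adjusted p = 0.153). The 0 higher calls were also 0 in DESeq2 and at an unadjusted p under 0.05. The median of these 10 genes was -0.09, so the group as a whole lay near the median of all tested genes.

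In the pathway that raises transcription of proteasome genes, 4 of 8 genes fell and 1 rose, with a median of -0.35. Nfe2l1 itself had 198 and 183 CPM in si3m, against 230.0 and 254 CPM in siNT (1.27-fold lower, log2 -0.34, SE 0.069, edgeR adjusted p = 0.00158). Mafk, a small Maf partner that binds the element together with NRF1, had 25.4 and 30.0 CPM in si3m, against 45.8 and 62.0 CPM in siNT (1.95-fold lower, log2 -0.96, SE 0.18, adjusted p = 8.22e-04). Maff, a second small Maf, fell by 0.56 (SE 0.12, adjusted p = 0.00174). The third, Mafg, fell by 0.35 (adjusted p = 0.0314), with the call lost in DESeq2, without siNT replicate 2 and without si3m replicate 2 (highest adjusted p = 0.242). Ngly1, the glycanase that processes NRF1, rose by 1.04 (SE 0.25, adjusted p = 0.00607, but 0.0664 without si3m replicate 1). Mafg and Ngly1 were chosen after their values were seen. Ddi2, the protease that cleaves NRF1, had a log2 value of -0.20, and the related factor Nfe2l2 one of -0.09, and neither passed.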

How the data were processed

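The authors deposited counts of ribosome footprint reads per gene, as whole numbers with no scaling. Tools named in the submitters' processing notes are HISAT2 2.2.1, Trimmomatic 0.40, limma, featureCounts and DESeq2, with the genome build rn6. Annotation, strand setting and handling of reads with more than 1 match are not stated in the sources used here. Counts above 0 were even in 94.9% to 97.3% of cases per library, so counting limits were set on fragments of 2 counts. Reads carried no molecular identifiers.

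The 2 si3m and 2 siNT libraries were compared in edgeR 4.0.16 (R 4.3.3) by quasi-likelihood: filterByExpr (minimum count 10), TMM scaling, glmQLFit and glmQLFTest, two-sided, Benjamini-Hochberg over all 12672 tested genes, threshold 0.05, no replicate block. The SE of a log2 fold change was its size divided by the square root of F. Psma8 and Psmb9 did not pass the filter. Between replicates, the median chi-square over genes was 1.48 times counting noise in si3m and 1.40 times in siNT. Over members it was 0.762 times in si3m (35 members) and 1.73 times in siNT (34 members). Both pairs were kept as 2 samples, but these values cannot show whether the libraries of a group are separate cultures. The script was tested on simulated data.

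The members and gene lists were chosen with earlier results of these data known, and list counts and medians are descriptions. All members are accounted for, with full values for those called. From each other list up to 3 genes with the smallest p are named, and Eif3m. The results of 2 genes named by this rule are not reported here. Part of that rule ranked uncalled members by level per coding length. It was not used here, as no lengths for rn6 were at hand, and levels of different genes are not compared. Paaf1, Ecpas and Ufd1 could not be matched to an entry. Names, copies, overlaps and promoter sequence came from RefSeq tables of GRCr8, by symbol. DESeq2 1.42.0 was an alternative test, and 15 alternatives were tried in all.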

Additional observations from a re-analysis of the deposited data

How the results depend on the processing

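Of 544 values of members under 15 alternatives, 501 kept their direction and side of the threshold, 8 lost a call, 26 gained one and 9 changed sign, all 9 in members that had not passed. Psmb3 turned to -0.0043 with total count scaling. Leaving out each library in turn, log2 values ranged from -0.11 to 0.039 for Psma3, -0.34 to 2.16 for Psmb8, -0.090 to 0.029 for Psmd1, -0.39 to 0.25 for Psmd9 and -0.0053 to 0.28 for Psmd11. Of the 13 called members, 9 kept their call in every alternative, all but Psmc1, Psmc2, Psmc4 and Psmd8. Total count scaling gave 9 members lower, 4 in the base and 5 in the lid or other class, and split all genes into 1428 higher and 2217 lower. DESeq2 gave 1212 and 1344 over all genes and 1 lower call in the base. The leave-one-out counts were 7 to 10 members higher and 3 to 6 lower. They were 5 to 7 and 0 in the 20S core, 1 to 2 and 0 to 3 in the base, and 0 to 1 and 3 to 5 in the lid or other class. Medians ranged from 0.32 to 0.44 in the 20S core, -0.32 to -0.16 in the base and -0.17 to 0.013 in the lid or other class, and all genes from 1292 to 1982 higher and 1245 to 1757 lower. The cause was not tested. Both groups carry replicate numbers 1 and 2, but no deviation shared by samples of the same number was seen (r = -0.023 over 12672 genes). This cannot show whether such samples were prepared together, which the labels do not say. With the replicate block, 1851 genes were higher and 1843 lower, with 8 and 7 members. Depth limits the immunoproteasome subunits and Psmd10.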
